A study of Mus musculus with 55 samples.

Results

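The genes described here are the Bmp ligand genes Bmp2, Bmp4 and Bmp7, the Id genes Id1, Id2, Id3 and Id4, the Msx genes Msx1 and Msx2, and Bambi, chosen by name. All 10 had an entry among the 15807 genes counted in epiblast stem cells (EpiSCs) and among the 14602 counted in embryonic tailbuds. The series holds 55 mouse samples on Cdx and T, transcription factors needed by the cells from which trunk and tail grow. RNA was measured by CEL-seq, which counts the 3′ ends of transcripts, from 10 ng of total RNA. EpiSCs are pluripotent cell lines taken from pre-streak embryos, started on mouse embryonic fibroblast feeders and later grown without feeders with Fgf-basic, Activin A and 2 µM IWP2, which blocks Wnt secretion. WT and Null lines were collected in that medium (0h), and 24h after IWP2 was withdrawn and 3 µM of the GSK3 inhibitor Chiron and 120 ng/ml Fgf8 were added, with 2 libraries in each of the 4 groups. No cells were kept for 24h without the stimulation, so Chiron, Fgf8, loss of IWP2 and time in culture cannot be told apart. Tailbuds were dissected at E8.0 without treatment from WT, Cdx1-4 and Triple embryos, with 3 libraries in each group. The labels do not spell out the alleles behind Null, Cdx1-4 and Triple, nor how many lines or animals stand behind a library. The culture text of the Null cells names CdxKO embryos and speaks of Wnt3 null cells as well. Replicates may therefore be technical, and the p-values measure only the spread between these libraries.

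Bmps are secreted ligands that bind a complex of type I and type II receptors, which phosphorylates Smad1, Smad5 and Smad9; these enter the nucleus with Smad4 and act on target genes. The Id genes are the classic immediate targets and encode helix-loop-helix proteins without a DNA-binding region, which hold E proteins and other basic helix-loop-helix factors away from DNA. Msx1 and Msx2 encode homeobox repressors that mark Bmp-exposed ectoderm and mesoderm, and Bambi encodes a membrane protein that resembles a type I receptor without a kinase and dampens the signal. In the early embryo, Bmp from the extraembryonic tissues acts on the epiblast and posterior streak, where it is needed for mesoderm, the allantois and germ cell precursors.

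RefSeq promoter sequences (GRCm38.p6) were at hand for 6 of the 10 genes, Bmp4, Id2, Id3, Id4, Msx1 and Msx2. Shown are the 250 bases before the start of a ligand gene and 2 targets that rose together at 24h, Bmp4, Id3 and Msx1, and of Id2, whose pattern differed. Capitals mark a match on either strand to GGCGCC or GGAGCC, GC-rich sites described for Smad1 and Smad5, to the T-box site AGGTGT, to the Tcf/Lef core CTTTGA or to the Cdx core TTTATG; no matches overlapped.
Bmp4, chr14:46390670-46390919, minus strand: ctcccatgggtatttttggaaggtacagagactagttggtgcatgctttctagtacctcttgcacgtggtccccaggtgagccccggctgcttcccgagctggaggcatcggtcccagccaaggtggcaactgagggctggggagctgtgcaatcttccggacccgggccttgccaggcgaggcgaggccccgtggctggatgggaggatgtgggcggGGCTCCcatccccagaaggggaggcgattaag
Id3, chr4:136143572-136143821, plus strand: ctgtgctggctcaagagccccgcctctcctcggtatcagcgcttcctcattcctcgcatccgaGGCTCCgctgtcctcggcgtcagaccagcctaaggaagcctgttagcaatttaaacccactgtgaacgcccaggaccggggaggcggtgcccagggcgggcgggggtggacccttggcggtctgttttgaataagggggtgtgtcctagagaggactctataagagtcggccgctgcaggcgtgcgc
Msx1, chr5:37824586-37824835, minus strand: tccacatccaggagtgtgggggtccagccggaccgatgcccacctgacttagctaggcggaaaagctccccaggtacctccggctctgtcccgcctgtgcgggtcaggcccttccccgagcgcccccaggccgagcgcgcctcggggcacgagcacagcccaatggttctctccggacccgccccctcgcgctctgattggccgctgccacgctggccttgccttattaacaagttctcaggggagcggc
Id2, chr12:25096093-25096342, minus strand: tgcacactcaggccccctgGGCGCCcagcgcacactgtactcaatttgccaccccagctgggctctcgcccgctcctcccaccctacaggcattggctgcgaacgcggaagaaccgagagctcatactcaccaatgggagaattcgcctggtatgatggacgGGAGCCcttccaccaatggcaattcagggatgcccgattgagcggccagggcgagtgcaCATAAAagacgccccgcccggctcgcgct
The windows of Bmp4 and Id3 held 1 match each, to the same Smad site GGAGCC, and the Msx1 window held none. Id2 held 1 match to each of the Smad sites and 1 to the Cdx core. Of the windows not shown, Id4 also held 1 match to each Smad site, and Msx2 held 2 to GGAGCC. Of 32851 promoters of the same length, 26% held the site GGAGCC, 9.59% the other Smad site and 10.8% the Cdx core. The T-box and Tcf/Lef sites, found in 11.8% and 13.8% of all promoters, matched none of the 6 windows. The E-box CANNTG, the motif of E proteins, matched 3 times in Bmp4 and 1 time each in Id2, Msx1 and Msx2, against at least 1 match in 66.2% of all promoters. These matches describe the letters of the windows and show no binding.

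EpiSC libraries held 1114055 to 2914870 counts and tailbud libraries 389601 to 854852. Levels are CPM, counts per 1000000 counts of a library after TMM scaling. On that scale 3 counts amount to 1.04 to 2.69 CPM in an EpiSC library and 3.53 to 7.84 in a tailbud library. Differences were tested with edgeR's quasi-likelihood test over 9703 genes in EpiSCs and 6003 in tailbuds, and a gene was called at a Benjamini-Hochberg adjusted p below 0.05 over all of them. Of the 10 genes, 7 passed the filter on low counts in EpiSCs and 5 in tailbuds. Bmp2, Bmp4 and Msx1 reached the filter level of 6.10 CPM in EpiSCs only in 24h libraries, so a difference between times was built into their selection and the counts of called genes below are a description. The 10 genes and all lists used below were also chosen with earlier results of these data known. Their shares called, in EpiSCs and in tailbuds, are therefore no independent test against all genes. At the level of RNA the labels read out as follows. T and Cdx2 rose at 24h in WT and in Null EpiSCs, by 3.16 ± 0.15 and 2.91 ± 0.52 in WT and by 5.38 ± 0.19 and 2.31 ± 0.71 in Null on the log2 scale (SE). In Null cells the Cdx2 call failed without Null 0h replicate 1 (adjusted p = 0.34), without either Null 24h library (adjusted p = 0.0701 and 0.0942) and with DESeq2 (adjusted p = 0.0769). Between Null and WT EpiSCs, Cdx2 was not called at 0h or at 24h. Cdx4 had 68 counts over the 3 WT tailbud libraries, against 1 for Cdx1-4 and 0 for Triple. Cdx1 differed from WT tailbuds by -1.60 in Cdx1-4 and -1.27 in Triple on the log2 scale (edgeR adjusted p = 5.11e-06 and 1.27e-04). Cdx2 differed from WT by -1.12 in Triple (edgeR adjusted p = 1.47e-04, and 0.121 in the blue libraries alone) and was not called in Cdx1-4.

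In WT EpiSCs the 3 ligand genes, Id1, Id3 and Msx1 rose within 24h of Chiron and Fgf8, and Id2 did not pass the test. The ligand transcripts rose 5.17-fold to 9.61-fold, and the Id1 and Id3 transcripts 2.15-fold and 2.52-fold. Of the 7 genes tested, 6 were called higher and 0 lower, against 8.19% called higher, 8.63% called lower and 16.8% in either direction among all tested genes. The same 6 had every 24h library above every 0h library, which held for 26.9% of all tested genes, with 27.1% separated downwards. The median log2 difference was 2.37 over the 7 genes and -0.01 over all tested genes.

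**Figure D1:**
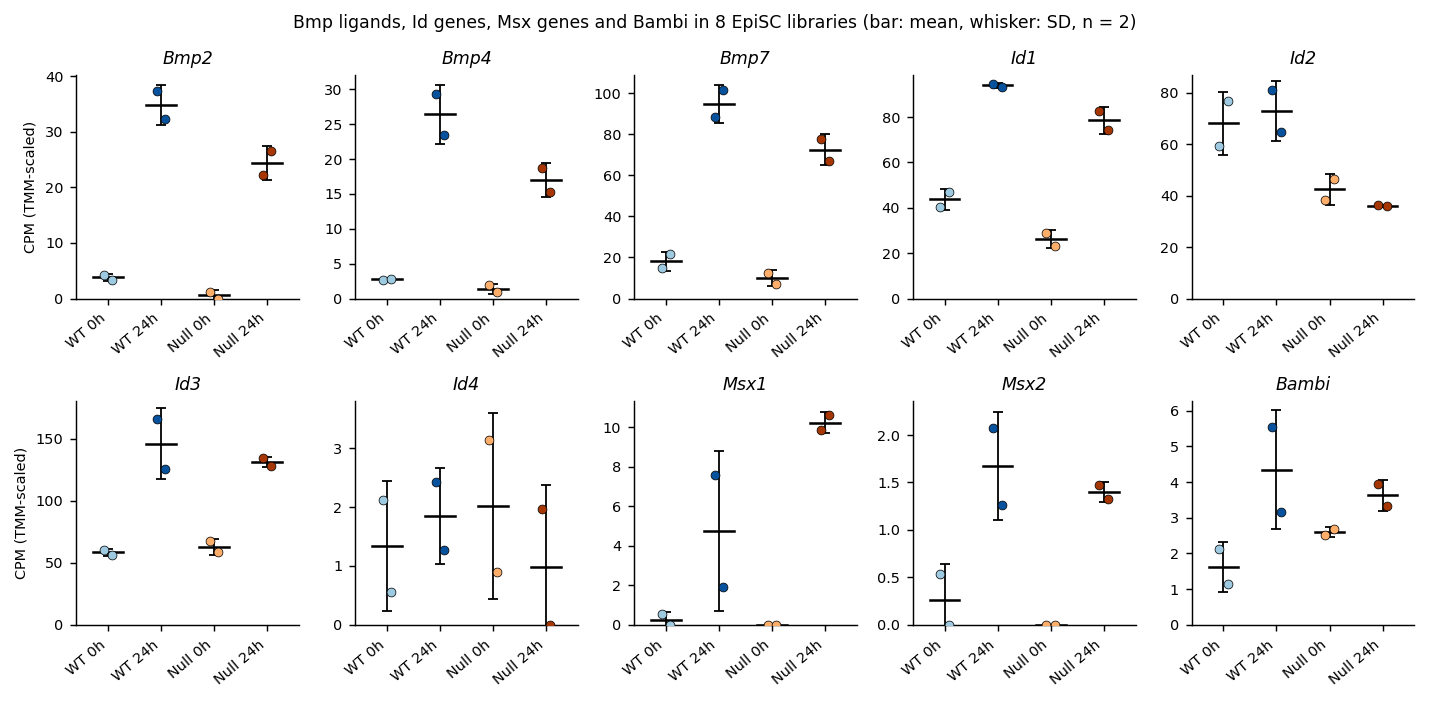
Level of each gene in CPM (y axis, linear from 0, own scale per gene) in the 8 EpiSC libraries, with 1 point per library, the mean as a bar and the SD as a whisker. The 3 ligand genes, Id1, Id3 and Msx1 are higher in every 24h library than in any 0h library, while Id2 is lower in all 4 Null libraries than in any WT library.

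Bmp2 (GRCm38 2:133552159-133562896), a ligand of endoderm and mesoderm, had counts of 8 and 6 in the unstimulated WT libraries and of 108 and 51 after 24h. Its level went from 3.82 ± 0.61 to 34.8 ± 3.56 CPM (SD, n = 2), with both 24h libraries far above both at 0h. The log2 difference was 3.18 ± 0.34 (SE, edgeR adjusted p = 6.06e-09). Bmp4 (14:46383525-46390669), the ligand of the posterior streak and allantois, was counted 5 times in each 0h library, and 85 and 37 times at 24h. These are 2.74 ± 0.12 and 26.4 ± 4.21 CPM (SD, n = 2), and the log2 rise was 3.26 ± 0.38 (SE, edgeR adjusted p = 4.08e-08). The groups lay well apart, and the WT 0h value rested on 10 counts in all. Bmp7 (2:172868012-172940321), which can pair with either of the other two ligands, was the ligand gene with the most counts at 0h. Its counts were 28 and 38 before and 255 and 160 after stimulation, or 18.2 ± 4.67 and 94.8 ± 9.34 CPM (SD, n = 2). Its rise of 2.37 ± 0.21 on the log2 scale (SE, edgeR adjusted p = 7.68e-11) was again free of overlap.

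Id1 (2:152736251-152737410) was counted 76 and 83 times before and 274 and 147 times after stimulation in WT cells, and went from 43.7 ± 4.62 to 94.0 ± 1.13 CPM (SD, n = 2). The log2 difference was 1.11 ± 0.17 (SE, edgeR adjusted p = 4.6e-06). Id3 (4:136143822-136145392) had 114 and 100 counts before stimulation and 480 and 198 after it. The level went from 58.6 ± 2.87 to 146 ± 28.7 CPM (SD, n = 2), a rise by 1.33 ± 0.15 on the log2 scale (SE, edgeR adjusted p = 3.52e-08). For both genes the lowest 24h library lay above the highest 0h library. Id2 (12:25093799-25096092), whose product binds the same E proteins, had 112 and 136 counts before stimulation and 235 and 102 after. Its 4 WT libraries overlapped, at 68.2 ± 12.3 and 73.0 ± 11.8 CPM (SD, n = 2), and the log2 difference of 0.12 ± 0.17 (SE, edgeR adjusted p = 0.705) had a 95% interval from -0.22 to 0.47. Id4 (13:48261116-48266028) was too low to test in either genotype, with 0 to 7 counts in any EpiSC library and a pooled WT ratio of 1.47 between times (95% exact counting interval 0.442 to 5.58).

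Msx1 (5:37820491-37824585) was nearly silent in WT cells at 0h, with 1 and 0 counts, and reached 22 and 3 after stimulation. The ratio of pooled counts was 20.4, with an exact counting interval from 3.34 to 838, and the difference was called (edgeR adjusted p = 0.00389). The WT 24h libraries differed from each other, at 7.61 and 1.90 CPM, and the call rested on the first of them: without it the adjusted p was 0.351, without WT 0h replicate 2 it was 0.0703, and with DESeq2 it was 0.138. The antisense gene Msx1as was counted separately and had 0 counts in all WT libraries; whether strand was used in counting is not given in the sources used here. Msx2 (13:53466881-53472780) was untested, with counts of 1 and 0 before and 6 and 2 after stimulation, a pooled ratio of 6.53 (interval 0.876 to 290). Bambi was untested as well, with counts of 4 and 2 before and 16 and 5 after, a pooled ratio of 2.86 (interval 1.12 to 8.66). Reads of Bambi could be shared with its pseudogene Bambi-ps1, which had 0 to 2 counts in any EpiSC library. These intervals cover counting error only.

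In Null EpiSCs the same 6 genes were called higher at 24h and Id2 again was not called. The 6 of 7 tested genes stood against 9.18% called higher, 9.44% lower and 18.6% in either direction among all tested genes, with a median log2 difference of 2.81 beside 0.01 over all. Without Bmp2, Bmp4 and Msx1, which reached the filter level only in 24h libraries, the median of the other 4 was 1.31 in Null and 1.22 in WT. Full separation of the libraries held upwards for 29.1% of all tested genes and downwards for 28.7%.

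Bmp2 had 2 and 0 counts in the unstimulated Null libraries and 45 and 40 after 24h, a pooled ratio of 32.5 with an exact counting interval from 8.74 to 273 (edgeR adjusted p = 3.67e-08). Bmp4 was counted 3 and 1 times before and 38 and 23 times after stimulation, or 1.39 ± 0.70 and 17.0 ± 2.43 CPM (SD, n = 2), and rose by 3.48 ± 0.53 on the log2 scale (SE, edgeR adjusted p = 5.34e-06). Bmp7 was counted 20 and 8 times before and 158 and 101 times after, or 9.87 ± 3.80 and 72.5 ± 7.58 CPM (SD, n = 2), and rose by 2.81 ± 0.26 (SE, edgeR adjusted p = 3.01e-10). For each ligand gene both 24h libraries lay above both 0h libraries.

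Id1 was counted 46 and 26 times in unstimulated and 168 and 112 times in stimulated Null cells, and went from 26.1 ± 3.91 to 78.6 ± 5.89 CPM (SD, n = 2), by 1.57 ± 0.20 on the log2 scale (SE, edgeR adjusted p = 2.32e-07). Id3 was counted 107 and 65 times before and 272 and 193 times after stimulation, and went from 62.8 ± 6.23 to 131 ± 4.06 CPM (SD, n = 2), by 1.05 ± 0.16 (SE, edgeR adjusted p = 9.31e-06). Both genes were free of overlap between the times. Id2 was counted 61 and 52 times before and 74 and 54 times after, which at the higher depth of the 24h libraries is 42.5 ± 5.94 and 36.2 ± 0.40 CPM (SD, n = 2). Its 24h libraries lay below its 0h libraries, but the log2 difference of -0.21 ± 0.22 (SE, edgeR adjusted p = 0.567; 95% interval -0.66 to 0.23) did not pass the test.

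Msx1 was at 0 in both unstimulated Null libraries and had 20 and 16 counts at 24h, at least 9.19-fold higher against a floor of 3 counts over the group (edgeR adjusted p = 1.19e-04). Its Null 24h libraries lay close together, at 9.85 and 10.6 CPM, unlike those of WT. Msx1as had 1 count in each of them. Msx2 went from 0 and 0 to 3 and 2 counts, at least 1.28-fold, and Bambi from 4 and 3 to 8 and 5 counts, a pooled ratio of 1.42 (interval 0.527 to 4.21).

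Beside these rises, the 6 markers of axial progenitors and tailbud (T, Cdx2, Wnt3a, Fgf8, Fgf17 and Nkx1-2) summed to between 77.1 and 80.3 CPM in WT libraries at 0h and between 481 and 641 CPM at 24h. In Null the sum lay between 26.0 and 33.3 CPM at 0h and between 590 and 704 at 24h. T led the 24h sums, with a mean of 465 CPM in WT and 557 in Null. The sum of the 4 presomitic mesoderm markers was higher at 24h too, at 113 to 165 CPM against 5.65 to 7.97 in WT and 148 to 208 against 8.16 to 8.98 in Null. Tbx6 led that sum at 24h, with a mean of 121 CPM in WT and 161 in Null, while Hes7 overlapped between the times in Null. The 6 epiblast markers stood at 539 to 570 CPM at 0h and 114 to 119 at 24h in WT, and at 1016 to 1097 and 199 to 229 in Null, with Nanog at 0 in every group but WT 0h. In WT the 6 allantois and extraembryonic mesoderm markers summed to 43.0 to 45.7 CPM at 0h and 115 to 131 at 24h. In Null that sum was 55.3 to 80.8 and 171 to 202 CPM. Of 3 tested, Cdh11 was called higher in both genotypes and Ahnak lower in WT. The 7 cardiac and lateral plate markers summed to 6.22 to 11.2 and 19.7 to 23.5 CPM in WT. In Null they summed to 10.7 to 18.0 and 30.5 to 37.2 CPM. Endoderm, neural crest and neural sums were lower at 24h in both genotypes. The part of these shifts in the rises of the Bmp and Id genes was not tested, and in bulk RNA more cells of a type and more RNA per cell cannot be told apart. The 3 genes whose log2 CPM over the 8 EpiSC libraries was most like that of Msx1 were Rpl22, Zfpm1 and Ror2, each with a Pearson correlation of 0.98; the libraries share their times, and Msx1 was at 0 or 1 count in 4 of them.

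**Figure D2:**
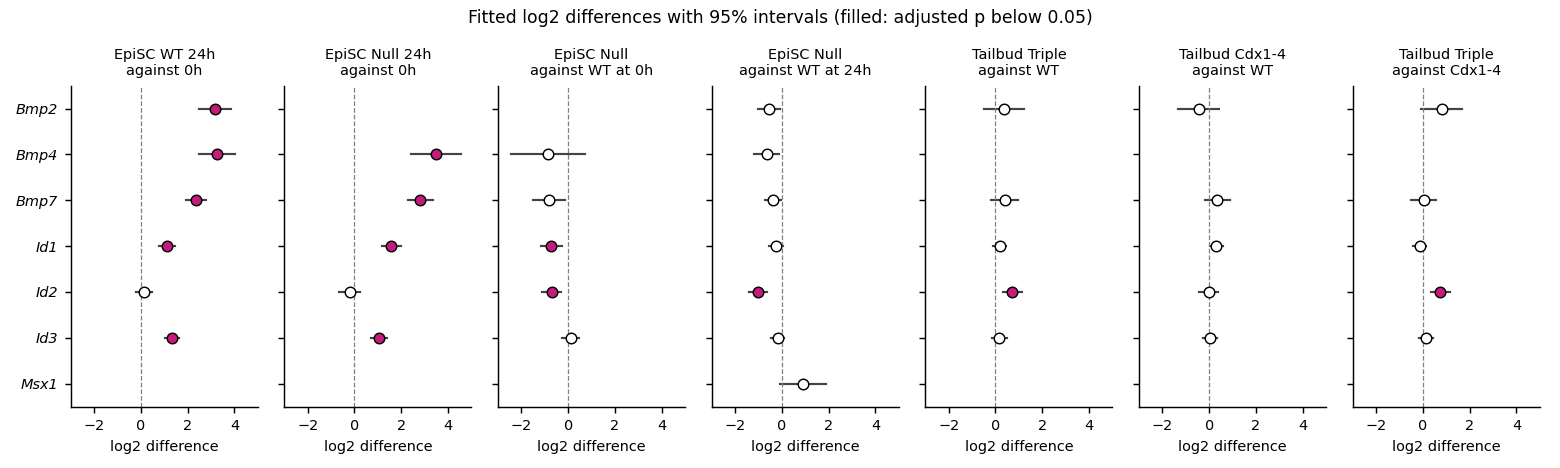
Fitted log2 difference (x axis) with its 95% interval for each tested gene (rows) in 7 comparisons (panels); filled points have an edgeR adjusted p below 0.05, and a gene with under 4 counts in a group is left out of that panel. Bmp4, Bmp7, Id1 and Id3 lie to the right in both 24h panels. Bmp2 lies to the right in the WT 24h panel and is left out of the Null 24h panel. Id2 is filled to the left for Null against WT EpiSCs and to the right for Triple tailbuds.

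Whether Null and WT cells responded differently was tested by the difference of their 24h responses, Null minus WT. By edgeR, 0 of the 7 genes were called, against 0.567% of all genes tested, 0 had an unadjusted p below 0.05, and DESeq2 called 0. The difference was 1.73 ± 0.91 for Bmp2 (SE, edgeR adjusted p = 0.531), 0.44 ± 0.38 for Bmp7 (adjusted p = 0.754) and 0.46 ± 0.27 for Id1 (adjusted p = 0.598). It was 0.22 ± 0.76 for Bmp4, -0.28 ± 0.23 for Id3 and -0.34 ± 0.28 for Id2. The 95% intervals reached from -0.12 to 3.58 for Bmp2 and from -1.33 to 1.77 for Bmp4, so that a difference of several fold between the genotypes lies within them. They were narrower for Bmp7, from -0.32 to 1.21, for Id1, from -0.08 to 1.01, and for Id3, from -0.75 to 0.18. For Msx1, with 0 counts in Null and 1 in WT at 0h, the interval from -2.33 to 8.75 leaves the difference undetermined (edgeR adjusted p = 0.755).

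Between Null and WT cells at the same time, Id2 was the gene of the set that was called at both times, lower in Null. At 0h its 2 Null libraries stood at 38.3 and 46.7 CPM and the WT libraries at 59.5 and 76.9, which is -0.70 ± 0.20 on the log2 scale (SE, edgeR adjusted p = 0.0257). At 24h the Null libraries stood at 36.5 and 35.9 CPM and the WT libraries at 81.3 and 64.6, and the difference was -1.03 ± 0.19 (SE, edgeR adjusted p = 3.25e-04). No Null library reached the lowest WT library at either time. The call at 24h was kept in all 13 alternatives, with adjusted p from 3.06e-06 to 0.0283. The call at 0h was lost with DESeq2 (adjusted p = 0.207), without Null 0h replicate 1 (adjusted p = 0.293) and without WT 0h replicate 2 (adjusted p = 0.304).

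Id1 was lower in Null at 0h too, at 28.9 and 23.3 CPM against 40.4 and 46.9 in WT, a difference of -0.72 ± 0.22 on the log2 scale (SE, edgeR adjusted p = 0.0384). Its call held in 5 of 13 alternatives and was lost with DESeq2 (adjusted p = 0.199), in the compared groups alone (adjusted p = 0.0537) and without any 1 of 6 libraries, among them each of the 4 compared, with adjusted p up to 0.244. At 24h Id1 did not pass the test, at -0.25 ± 0.15 (adjusted p = 0.348). Id3 was not called at 0h, at 0.11 ± 0.18 (adjusted p = 0.793), nor at 24h, at -0.17 ± 0.14 (adjusted p = 0.521). At 0h 2 of 7 genes were thus called lower and 0 higher, against 3.35% and 3.32% of all tested genes and 6.67% in either direction. At 24h 1 of 7 was called lower and 0 higher, against 4.35% and 3.7%, and 8.05% in either direction.

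The ligand genes had lower values in Null than in WT libraries without overlap at both times, and none of these differences passed the test. Such full separation downwards held for 26.5% of all tested genes at 0h and for 24.8% at 24h. At 24h the log2 difference was -0.54 ± 0.24 for Bmp2 (SE, edgeR adjusted p = 0.166), -0.65 ± 0.26 for Bmp4 (adjusted p = 0.135) and -0.37 ± 0.17 for Bmp7 (adjusted p = 0.186). At 0h it was -0.86 ± 0.77 for Bmp4 (adjusted p = 0.591) and -0.81 ± 0.33 for Bmp7 (adjusted p = 0.153), and the pooled counts of Bmp2 had a ratio of 0.193 (interval 0.0213 to 0.839; adjusted p = 0.109). Msx1 had 20 and 16 counts in Null and 22 and 3 in WT at 24h, a log2 difference of 0.90 ± 0.48 (SE, adjusted p = 0.278). For Bmp2, Bmp4, Bmp7 and Id1 the group means therefore had the same order, WT 24h, Null 24h, WT 0h and Null 0h, in which the neighbouring genotypes were not separated by the test except for Id1 at 0h. Null 24h was not tested against WT 0h.

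The 7 fibroblast markers, a check on feeder cells, summed to 208 to 253 CPM in WT 0h libraries and 101 to 119 in Null 0h libraries, where Lum was at 0, and to 114 to 148 and 85.7 to 108 at 24h. Col3a1, a fibrillar collagen of that list chosen after its values were seen, was lower in Null at 0h and at 24h, by 1.45 and 1.06 on the log2 scale (edgeR adjusted p = 3.55e-06 and 0.00114). It was the only one called of the 4 tested. Without it the other 6 summed to 52.6 to 65.9 CPM in WT and 44.9 to 51.5 in Null at 0h, and at 24h were lower in WT, at 48.2 to 51.2 CPM against 54.7 to 61.8. The median log2 difference of the 4 tested was -0.39 at 0h and 0.30 at 24h. The epiblast markers summed to 1016 to 1097 CPM in Null and 539 to 570 in WT at 0h. The part of either in the lower Id2 and Id1 was not tested.

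The other genes of the pathway were read from lists by role, 70 genes of which 35 were tested in EpiSCs. In WT cells 8 were called higher at 24h and 5 lower, and in Null cells 11 higher and 4 lower, which is 37.1% and 42.9% of those tested against 16.8% and 18.6% of all genes. DESeq2 called 7 and 9 of the pathway genes. Sostdc1, Fst, Bmper, Gata4, Tfap2c and Nog, among those called higher, stayed below the filter level of 6.10 CPM in every 0h library. Smad7, among those called lower, stayed below it in every 24h library. A difference between times was thus built into the selection of these genes, and the shares called at 24h are a description. Between Null and WT, 1 was called higher and 2 lower at 0h and again at 24h, or 8.57% of those tested each time, against 6.67% and 8.05% of all tested genes. The median over the tested list was -0.10 in WT and 0.18 in Null on the log2 scale. None of the 12 other Bmp family ligand genes was high enough to test in either table, with at most 9 counts in any group for the 7 in each table.

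**Figure D3:**
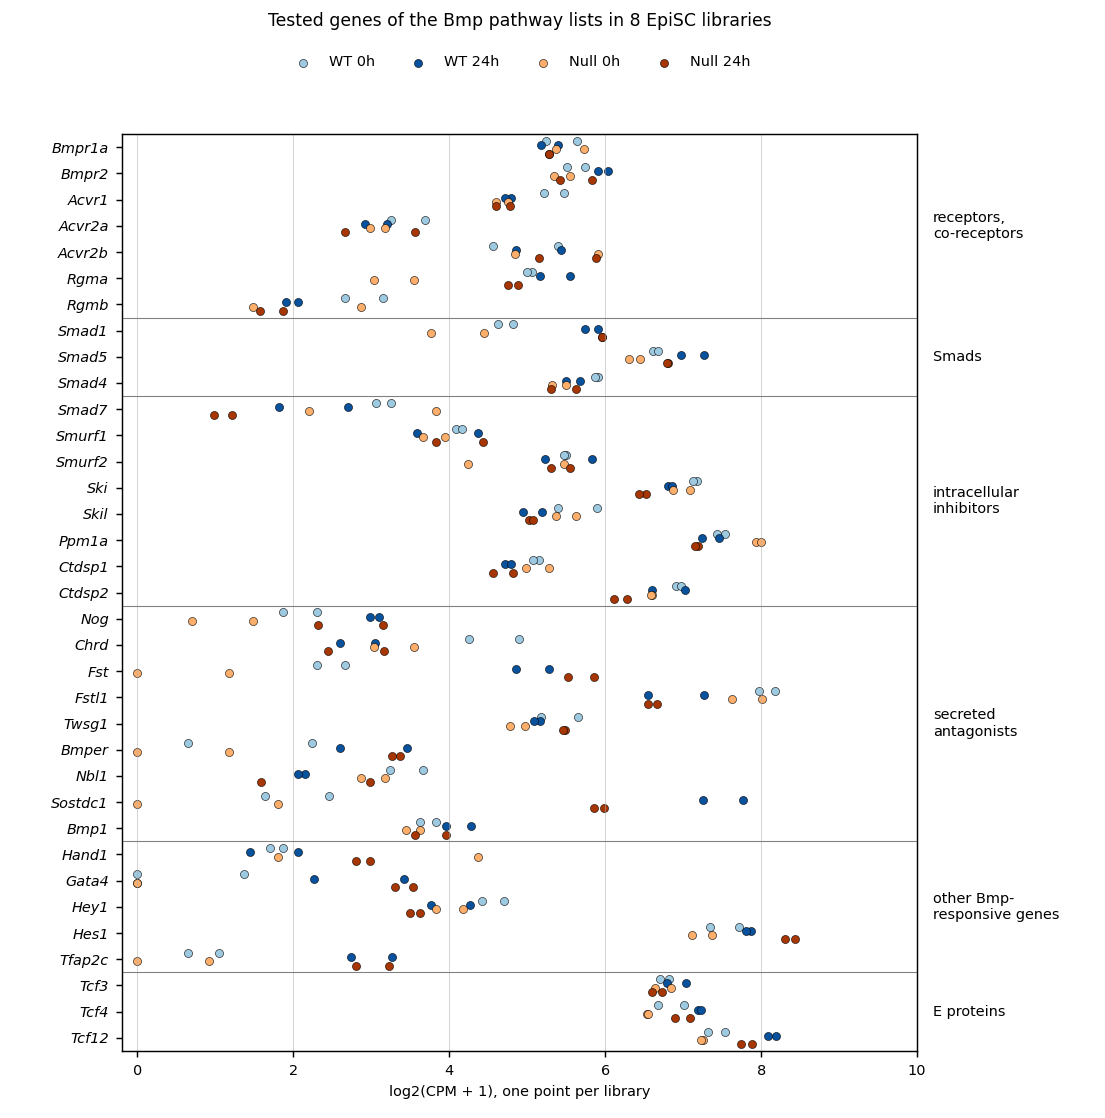
Level of each tested gene of the pathway lists as log2(CPM + 1) (x axis, log scale) in the 8 EpiSC libraries, with 1 point per library coloured by group and genes ordered by role. Sostdc1, Fst and Smad1 lie to the right at 24h in both genotypes, while Chrd, Fstl1 and Nbl1 lie to the left at 24h in WT.

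Among the secreted antagonists and modulators, which bind Bmps or related ligands outside the cell, 9 of 14 listed genes in the table were tested, and in WT 3 were called higher and 3 lower. Sostdc1, which binds Bmps and also acts on Wnt receptors, rose from 3.32 ± 1.69 to 184 ± 45.3 CPM (SD, n = 2) in WT, by 5.80 ± 0.29 on the log2 scale (SE, edgeR adjusted p = 2.58e-16). In Null cells it rose from 1.26 ± 1.78 to 59.9 ± 3.83 CPM (SD, n = 2), by 5.28 ± 0.45 (adjusted p = 7.29e-11). At 24h it was lower in Null than in WT, with a difference of -1.64 ± 0.18 (SE, edgeR adjusted p = 7.13e-08), a call kept in every alternative run. Fst, which binds activins and some Bmps, rose in WT by 2.83 ± 0.33 (adjusted p = 4.89e-08), from 4.64 ± 0.96 to 32.8 ± 6.94 CPM (SD, n = 2). In Null Fst went from 2 to 177 counts, a pooled ratio of 67.8 (interval 18.5 to 564; adjusted p = 2.14e-11).

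Chrd, the organizer protein that binds Bmps, fell in WT, by a difference of -1.86 ± 0.35 in log2 (SE, edgeR adjusted p = 1.48e-04), from 23.4 ± 7.50 to 6.17 ± 1.55 CPM (SD, n = 2). In Null cells Chrd stood at 8.93 ± 2.47 and 6.20 ± 2.50 CPM (SD, n = 2) and was not called. Null was lower than WT for Chrd at 0h, with a difference of -1.35 ± 0.36 (SE, edgeR adjusted p = 0.018), a call lost without either Null 0h library or without WT 0h replicate 1 (adjusted p from 0.0616 to 0.272). Fstl1 fell in both genotypes, by 1.18 in WT and 1.25 in Null (adjusted p = 4.12e-05 and 4.46e-05). Bmper, a Bmp-binding protein, was called higher in Null (32 against 2 counts, pooled ratio 12.2, interval 3.13 to 105; adjusted p = 0.00222, and 0.0569 with DESeq2). Its WT call (adjusted p = 0.0289) was lost without WT 0h replicate 2 and without WT 24h replicate 1 (adjusted p = 0.326 and 0.453), and with DESeq2 (adjusted p = 0.334). Nbl1 in WT (lower, 15 against 37 counts) and Nog in Null (higher, 22 against 3 counts) were also called and are named though they fall outside the rule of 4 genes a list. Both calls depended on single libraries: Nbl1 reached an adjusted p of 0.21 without WT 0h replicate 1, 0.133 without WT 24h replicate 1 and 0.0618 without WT 24h replicate 2, and Nog 0.278 without Null 0h replicate 1 and 0.33 without Null 24h replicate 1. DESeq2 called neither (adjusted p = 0.287 and 0.225).

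Of the receptors and co-receptors, 7 of 10 were tested. Rgma, a membrane-anchored co-receptor, was lower in Null than in WT at 0h, at 8.93 ± 2.47 against 31.8 ± 0.94 CPM (SD, n = 2), a difference of -1.78 ± 0.30 on the log2 scale (SE, edgeR adjusted p = 1.81e-04). It rose in Null by 1.56 ± 0.31 (adjusted p = 3.16e-04), and stood at 40.4 ± 7.88 CPM in WT at 24h without a call. Acvr1, a type I receptor, was called lower in WT at 24h by 0.61 (adjusted p = 0.0405), a call that was lost with DESeq2 (adjusted p = 0.411), without a filter (adjusted p = 0.06), in the compared groups alone (adjusted p = 0.0527) and without any 1 of 6 libraries, at adjusted p from 0.0526 to 0.305. No other receptor was called.

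Of the 3 Smad genes tested, Smad1 rose in both genotypes, from 25.4 ± 2.38 to 55.9 ± 4.62 CPM in WT and from 16.6 ± 5.76 to 61.1 ± 0.04 CPM in Null (SD, n = 2). The log2 differences were 1.14 ± 0.20 and 1.82 ± 0.24 (SE, edgeR adjusted p = 7.18e-05 and 3.71e-07). Smad5 was called higher in WT, by 0.47 ± 0.14 (adjusted p = 0.0163), but not with DESeq2 (adjusted p = 0.122), nor without WT 0h replicate 1, WT 0h replicate 2 or WT 24h replicate 2 (adjusted p = 0.118, 0.0634 and 0.13). Smad4, the shared partner, was not called.

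Among the 8 tested intracellular inhibitors, Ppm1a, a phosphatase of Smads, fell in Null at 24h by 0.80 on the log2 scale (SE 0.13, adjusted p = 1.08e-05), from 250 ± 7.63 to 143 ± 2.79 CPM (SD, n = 2). At 0h Ppm1a was higher in Null than in WT by 0.48 ± 0.12 (adjusted p = 0.0133), a call that leaving out any 1 of the 4 compared libraries ended (adjusted p from 0.0504 to 0.129). The other calls of this list were lost in single alternatives too. Smad7, an inhibitory Smad, was lower at 24h than at 0h in Null, with 4 against 25 counts (adjusted p = 0.00315), a call lost without Null 0h replicate 1 (adjusted p = 0.409), without Null 24h replicate 1 (adjusted p = 0.0551) and with DESeq2 (adjusted p = 0.0597). Ski, a corepressor, was lower at 24h than at 0h in Null, by 0.51 (adjusted p = 0.0103; 0.226 without Null 0h replicate 1 and 0.0818 without Null 24h replicate 2, 0.0757 with DESeq2). Its relative Skil was lower at 24h than at 0h in WT, by 0.64 (adjusted p = 0.0256; 0.43 without WT 0h replicate 1 and 0.279 without WT 24h replicate 1, 0.31 with DESeq2). Ctdsp2 was lower in Null than in WT at 24h by 0.65 (adjusted p = 0.00575; 0.0931 without Null 24h replicate 2 and 0.248 without WT 24h replicate 1, 0.0602 with DESeq2).

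Of the other genes known to respond to Bmp, 5 of 15 were tested. Gata4, a factor of heart and endoderm, had 0 counts in Null cells at 0h and 34 at 24h, at least 8.68-fold higher (edgeR adjusted p = 1.72e-04). In WT it went from 3 to 34 counts, a pooled ratio of 9.26 (interval 2.91 to 47.1; adjusted p = 0.0038), a call lost without WT 0h replicate 2 (adjusted p = 0.0898), without WT 24h replicate 1 (adjusted p = 0.257) and with DESeq2 (adjusted p = 0.104). Tfap2c, a factor of trophoblast, germ cells and ectoderm, went from 3 to 34 counts in WT (adjusted p = 0.0017) and from 1 to 26 in Null (adjusted p = 0.00165), and its calls were lost without WT 24h replicate 1 (adjusted p = 0.076), without Null 0h replicate 1 (adjusted p = 0.0793) and with DESeq2 (adjusted p = 0.081 and 0.0781). Hes1, a repressor that also responds to Notch, rose in Null by 1.12 ± 0.13 (SE, edgeR adjusted p = 5.29e-08), from 151 ± 18.7 to 330 ± 19.5 CPM (SD, n = 2), and stood at 185 ± 33.8 and 228 ± 7.53 CPM (SD, n = 2) in WT without a call. It was higher in Null than in WT at 24h by 0.53 ± 0.12 (adjusted p = 0.00422; 0.0885 without Null 24h replicate 1).

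The E proteins, the partners that Id proteins hold, were all tested. Tcf12 rose in both genotypes, by 0.71 ± 0.12 in WT and 0.57 ± 0.13 in Null (SE, edgeR adjusted p = 3.44e-05 and 0.00127). Tcf4 was called higher in Null by 0.46 ± 0.15 (adjusted p = 0.0302), a call lost without either Null 0h library, without Null 24h replicate 2 and with DESeq2 (adjusted p from 0.0926 to 0.219). Tcf3 was not called in any EpiSC comparison.

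In the E8.0 tailbuds the set was measured in a separate table, and no level is compared with EpiSCs. Of the 5 genes tested there, Bmp2, Bmp7, Id1, Id2 and Id3, only Id2 was called, higher in Triple than in WT and than in Cdx1-4. That is 1 of 5 against 2.9% of all tested genes called in Triple against WT, 1.62% of them higher, and 1 of 5 against 2.02% and 1.22% in Triple against Cdx1-4. The median of the 5 was 0.36 and 0.14 on the log2 scale, beside 0.00 over all genes in both.

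**Figure D4:**
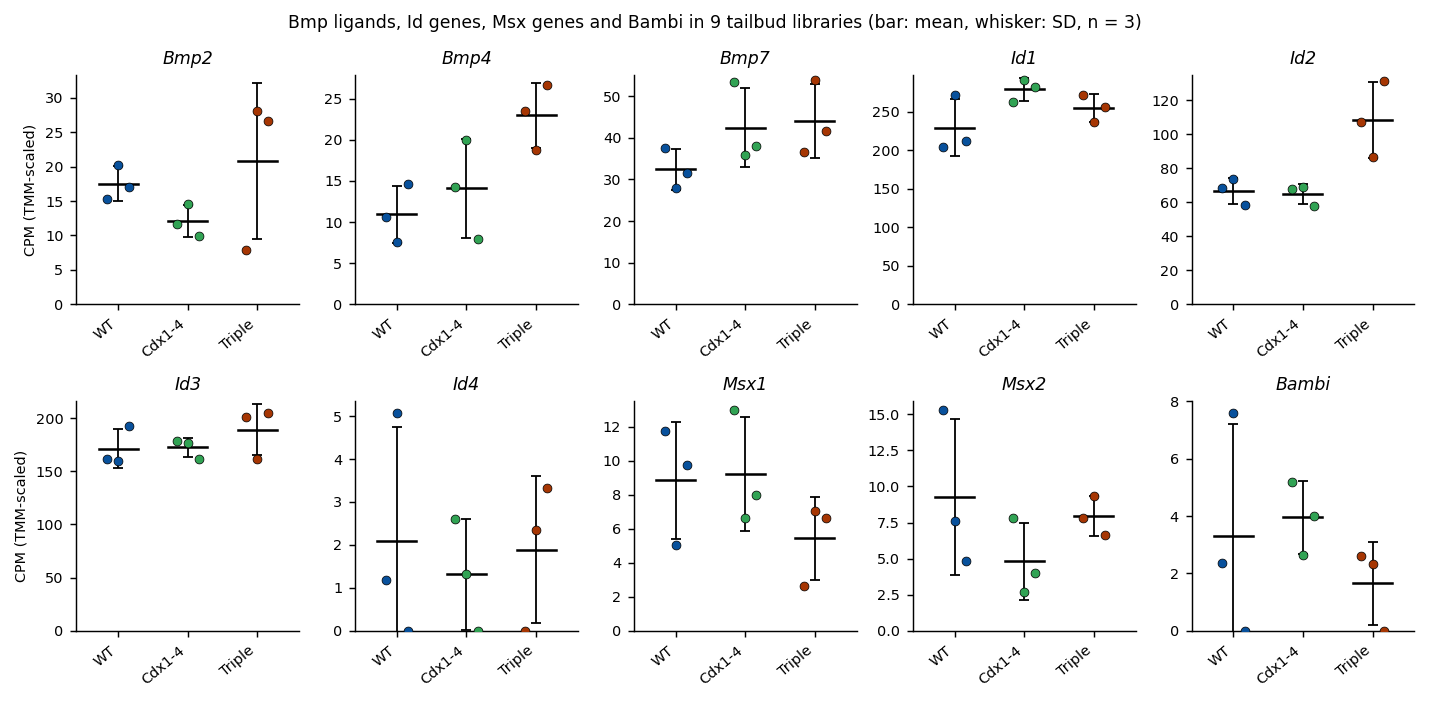
Level of each gene in CPM (y axis, linear from 0, own scale per gene) in the 9 tailbud libraries, with 1 point per library, the mean as a bar and the SD as a whisker. The 3 Triple libraries lie above all others for Id2, between 86.6 and 131 CPM, while the groups overlap for Id1 and Id3.

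Id2 was counted 58, 29 and 24 times in the WT tailbuds, 52, 52 and 29 times in Cdx1-4 and 41, 37 and 79 times in Triple. In CPM these are 68.2, 73.6 and 58.4 in WT, 67.7, 69.1 and 58.0 in Cdx1-4 and 107, 86.6 and 131 in Triple, so every Triple library lay above the highest library of both other groups. Such separation upwards held for 8.31% of all tested genes against WT (8.2% downwards) and for 7.96% against Cdx1-4. The log2 difference was 0.72 ± 0.20 between Triple and WT (SE, edgeR adjusted p = 0.033) and 0.75 ± 0.20 between Triple and Cdx1-4 (adjusted p = 0.0257). Between Cdx1-4 and WT it was -0.03 ± 0.21 (adjusted p = 0.986; 95% interval -0.45 to 0.40). Apart from a replicate block, the call against WT held in 7 of 15 alternatives: it was lost with DESeq2 (adjusted p = 0.42), in the blue libraries alone (adjusted p = 0.249), without a filter (adjusted p = 0.059), and without each of 5 libraries, the 3 of WT and Triple green-1 and blue-2 (adjusted p up to 0.351). The call against Cdx1-4 held in 9 of 15 and was lost with DESeq2 (adjusted p = 0.315), in the blue libraries alone (adjusted p = 0.168) and without Cdx1-4 green-1, Cdx1-4 blue-2, Triple green-1 or Triple blue-2 (adjusted p up to 0.309). The size was steadier, from 0.53 to 0.86 and from 0.56 to 0.89 over these alternatives.

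Id1 had 205, 272 and 212 CPM in WT, 263, 291 and 282 in Cdx1-4 and 272, 236 and 256 in Triple. The groups overlapped, and the log2 differences of 0.30 ± 0.14 for Cdx1-4 against WT (SE, edgeR adjusted p = 0.603) and 0.18 ± 0.14 for Triple against WT (adjusted p = 0.722) were not called. Id3 had 161, 160 and 192 CPM in WT, 178, 177 and 162 in Cdx1-4 and 201, 162 and 205 in Triple, with differences of 0.03 ± 0.15 and 0.17 ± 0.16 from WT (SE, adjusted p = 0.982 and 0.773). Their 95% intervals from WT ended at 0.58 for Id1 in Cdx1-4 and at 0.48 for Id3 in Triple. In Cdx1-4 against WT 0 of 5 genes were called by edgeR, against 0.133% of all tested genes (0.0333% higher and 0.1% lower); 1, Id1, had an unadjusted p below 0.05, and DESeq2 called 0.

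Bmp4 reached the filter level of 20.1 CPM in 2 Triple libraries where 3 were needed, so it was not tested in tailbuds and has no fitted value. Its counts were 9, 3 and 6 for WT, 11, 15 and 4 for Cdx1-4 and 9, 8 and 16 for Triple, or 10.9 ± 3.50, 14.1 ± 5.97 and 23.0 ± 3.98 CPM (SD, n = 3). All Triple libraries lay above all WT libraries, as for 8.31% of all tested genes (8.2% lay below). The ratio of pooled counts was 2.15 with an exact counting interval from 1.18 to 4.06, which leaves out the spread between libraries. Against Cdx1-4 the ratio was 1.58 (interval 0.932 to 2.68) and the groups overlapped. Bmp2 reached the filter level in 2 Triple libraries and 1 WT library only. Its counts were 13, 8 and 7 for WT, 9, 11 and 5 for Cdx1-4 and 3, 12 and 16 for Triple. Its Cdx1-4 libraries all lay below its WT libraries, as did 6.56% of all tested genes (6.48% lay above), but its log2 differences of 0.36 ± 0.43 for Triple and -0.45 ± 0.44 for Cdx1-4 against WT did not pass the test (SE, edgeR adjusted p = 0.838 and 0.877). Bmp7 stood at 32.4 ± 4.90 CPM in WT, 42.4 ± 9.54 in Cdx1-4 and 44.0 ± 8.86 in Triple (SD, n = 3), with overlapping libraries and differences of 0.36 ± 0.27 and 0.39 ± 0.29 from WT (SE, adjusted p = 0.819 and 0.664).

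Msx1, Msx2, Bambi and Id4 were untested in tailbuds. Counts of Msx1 were 10, 2 and 4 for WT, 10, 5 and 4 for Cdx1-4 and 1, 3 and 4 for Triple, a pooled ratio of 0.587 for Triple against WT (interval 0.217 to 1.45). Those of Msx2 were 13, 3 and 2 for WT, 6, 2 and 2 for Cdx1-4 and 3, 4 and 4 for Triple, a ratio of 0.717 (interval 0.306 to 1.60). Bambi had 0 to 4 counts and Id4 0 to 2 in any tailbud library. Bambi had 2 counts over the Triple libraries and 8 over Cdx1-4, a ratio of 0.358 (interval 0.0371 to 1.79), with all Triple libraries below all Cdx1-4 libraries, as for 7.63% of all tested genes.

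Markers of other tissues differed between the groups as well. In Cdx1-4 against WT, 0 genes of the neural crest, trophoblast and decidua, and presomitic mesoderm lists were called. No surface ectoderm marker was high enough to test. The 4 neural crest markers in the table summed to 125 to 143 CPM in Triple, 10.1 to 18.8 in WT and 23.9 to 36.0 in Cdx1-4. Sox10 led that sum, with 148 counts in Triple against 5 in WT (log2 difference 5.03 ± 0.39, SE, edgeR adjusted p = 2.45e-13), while Tfap2b was at 0 in Triple. The 5 surface ectoderm markers summed to 36.6 to 56.2 CPM in Triple, 20.0 to 26.0 in Cdx1-4 and 12.7 to 19.5 in WT. The 3 trophoblast and decidua markers in the table summed to 53.3 to 73.2 CPM in Triple, 26.0 to 39.9 in Cdx1-4 and 16.5 to 19.5 in WT. Prl8a2 had 35 counts in Triple against 1 in WT (edgeR adjusted p = 3.56e-04). The sum of the 4 presomitic mesoderm markers was lower in Triple, at 58.5 to 86.3 CPM against 198 to 228 in Cdx1-4 and 221 to 233 in WT. The 6 allantois and extraembryonic mesoderm markers summed to 388 to 665 CPM in Triple, 280 to 439 in Cdx1-4 and 338 to 462 in WT. Of the 4 tested, Pitx1 and Tbx4 were called lower in Triple than in either other group, and Ahnak higher. Of the 7 endoderm markers tested, Sox17 was called higher in Triple than in Cdx1-4, and 0 were called against WT. T was lower in Triple than in WT by 0.85 (edgeR adjusted p = 8.98e-04, and 0.121 in the blue libraries alone). The part of these shifts in the Id2 result was not tested. The 3 genes most like Id2 over the 9 libraries in log2 CPM were Tmem37, Ppp1r26 and Sdhaf1, with Pearson correlations of 0.95, 0.94 and 0.93; the points share their groups and depth.

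Of the 23 pathway genes tested in tailbuds, edgeR called 0 in each of the 3 comparisons, and DESeq2 called 0. An unadjusted p below 0.05 was found for 3 in Triple against WT, 3 in Cdx1-4 against WT and 4 in Triple against Cdx1-4, or 13%, 13% and 17.4%, beside 12%, 7.63% and 10.9% of all tested genes. The genes that had moved most in EpiSCs were low here, with Sostdc1 at 0 or 1 count in a group and Fst at 5 to 10. Smad1 stood at 27.9 ± 6.99, 29.7 ± 3.69 and 29.6 ± 3.33 CPM in WT, Cdx1-4 and Triple (SD, n = 3).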

How the data were processed

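CEL-seq read counts per gene, as deposited by the authors, were used with no change of unit; mm10 is the build per the submitters' processing notes, and the aligner and counter are not given in the sources used here. Reads were 75 bp paired-end, per the labels' protocols. The members and all lists were chosen with earlier results of these data known. Each table was fitted alone with all its groups in edgeR 4.0.16 (R 4.3.3, limma 3.58.1), with TMM scaling, filterByExpr with a minimum of 10 counts at the median depth, glmQLFit with robust spread, glmQLFTest and Benjamini-Hochberg adjustment over all tested genes at 0.05. The residual degrees of freedom were 4 and 6. SE is the size of the log2 difference over the root of F. Ratios of pooled counts have exact 95% binomial intervals, floors are 3 counts over a group, and both cover counting error only. The procedure was run on simulated counts with planted differences and the same spread for every gene, a simpler setting than these data. The 8 spike entries, with at most 2 counts in all, were left out. Column names of the tailbud table give group and colour but not the sample, and a column written Cd4_1-4 was read as a misspelt Cdx_1-4. Alternatives were DESeq2 1.42.0, RLE scaling, no filter, the compared groups alone, each library left out, a replicate block (in tailbuds by column tag, added after seeing the data), colour as a term and blue libraries alone. Pathway genes were named by the smallest p, at most 4 a list and comparison. Binding and accessibility regions of the series, on mm9, were not used here. Gene positions and promoters are from RefSeq GRCm38.p6.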

Additional observations from a re-analysis of the deposited data

Results flagged for a closer look

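The 24h responses of Null and WT EpiSCs differed for 2 genes named beside the Bmp set, by the test of the difference itself. For Hes1, a repressor that responds to Notch and Bmp, the Null response exceeded that of WT by 0.82 on the log2 scale (edgeR adjusted p = 0.0238). Leaving out Null 0h replicate 2, Null 24h replicate 1 or WT 0h replicate 1 ended the call for Hes1 (adjusted p = 0.131, 0.158 and 0.234). For T (brachyury), used here to check the labels, the Null response was larger by 2.22 (edgeR adjusted p = 4.36e-05), and at 0h the difference of Null from WT was -1.98 on the log2 scale.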

How the results depend on the processing

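Bmp2, Bmp4, Bmp7, Id1 and Id3 kept their 24h calls in both genotypes under all alternatives run, as did Msx1 in Null cells and the lower Id2 of Null at 24h. RLE scaling and colour as a term changed no call of the 10 genes. DESeq2 called fewer genes in every comparison: 784 in place of 1632 for WT at 24h, 953 of 1807 for Null at 24h, 250 of 647 and 264 of 781 for Null against WT at 0h and 24h, 24 of 55 for the difference of responses, 91 of 174 for Triple against WT, 55 of 121 for Triple against Cdx1-4 and 4 of 8 for Cdx1-4 against WT. The blue libraries alone gave 74 and 38 genes for Triple against WT and Cdx1-4, and no filter gave 93 for the difference of responses. Leaving out 1 library gave 1034 to 1693, 1121 to 1975, 326 to 780, 357 to 813, 18 to 82 and, for Triple against Cdx1-4, 70 to 132. A lone EpiSC library is then assumed to vary like the other groups. Of the set, the 2 genes lower in Null at 0h became 0 with DESeq2, 1 in the compared groups alone and 0 to 2 when a library was left out. The 1 gene higher in Triple against either group became 0 with DESeq2, 0 in the blue libraries alone, 0 without a filter (against WT) and 0 to 1 when a library was left out. The 6 genes higher in WT at 24h became 5 to 6. Signs turned only for differences that were not called: Id3 in Cdx1-4 against WT (-0.047 in the blue libraries, -0.025 to 0.11 without a library), Id2 there (-0.10 to 0.031) and in WT at 24h (-0.060 to 0.32), Id3 in Null against WT at 24h (-0.34 to 0.060), Bmp4 in the difference of responses (-0.12 to 0.88) and Bmp7 in Triple against Cdx1-4 (-0.11 to 0.26). The causes were not tested. The titles of the EpiSC libraries give only a replicate number, and whether it marks pairs is not known. Correlations of deviations between same-numbered libraries were low, from 0.00722 to 0.0884. A replicate block gave 1939, 2092, 903, 1077 and 123 genes for the EpiSC comparisons, more each time than without it. It changed no call of the 10 genes in EpiSCs. Tailbud libraries with the same column tag did not deviate together (correlations -0.0934 to 0.0537). A replicate block on the tag, chosen after seeing the data, gave 163 genes for Triple against WT, 118 for Triple against Cdx1-4 and 6 for Cdx1-4 against WT. With it 0 of the set were called in Triple against WT (Id2 0.72, adjusted p = 0.0547) and 1 in Triple against Cdx1-4. Depth limits Id4, Msx2 and Bambi throughout, and Bmp4 and Msx1 in tailbuds.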
